A study of Rattus norvegicus with 15 samples.

Results

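The signalling route from cyclic AMP and calcium to the transcription factor CREB was followed through 9 genes: Adcy1, Adcy8, Prkaca, Prkacb, Camk4, Mapk3, Creb1, Crem and Crtc1. They were taken by name, as a list of cAMP, CREB and MAPK genes, from the 22314 genes of a raw count table, and all 9 were found and passed the filter on low counts. The list was drawn up with earlier results of these data known. The libraries came from dorsal CA1 of the hippocampus of male wild-type rats of the Sprague-Dawley strain, 8 to 9 weeks old, in 3 groups of 5. The first group received scrambled siRNA and stayed naive (naive libraries). The others were trained in contextual fear conditioning, in which a rat learns to link a place with a shock, 5 days after scrambled siRNA (scrambled trained libraries) or after siRNA labelled as directed against Rnf20 (Rnf20-labelled libraries). All groups therefore carried an injection of Accell siRNA, a type taken up without a transfection reagent, into dorsal CA1, and naive rats with Rnf20 siRNA were not analysed here. The tissue held all brain cell types. The labels give neither the time from training to dissection nor whether each library is 1 animal. The p-values therefore set group differences against the spread between libraries, which may be technical.

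As background, calcium entering through NMDA receptors binds calmodulin, which activates the cyclases encoded by Adcy1 and Adcy8, and the cyclic AMP they make releases the catalytic subunits of protein kinase A. Protein kinase A, calcium/calmodulin kinase IV and kinases downstream of ERK phosphorylate CREB, while dephosphorylated CRTC1 moves to the nucleus as its coactivator. CREB then binds cAMP response elements (CREs) in promoters. In the hippocampus this route is known for its part in long-lasting synaptic potentiation and in memory that requires new transcription. Most of it is switched on by phosphorylation and by movement of proteins, which counts of RNA do not show.

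Libraries held 12537250 to 20644425 counts. Rnf20 itself ranged from 38.3 to 44.6 CPM (a gene's share of its library's counts, with libraries scaled by TMM) in Rnf20-labelled libraries, inside the 36.4 to 48.5 CPM of scrambled trained libraries, so the group is named by its label and no difference below is one of a measured loss of Rnf20 mRNA. Of 7 CA1 markers, 6 were found and 5 passed the filter, among them Wfs1 at 132 to 1019 CPM and Dcn at 7.25 to 23.4 CPM. The CA1 marker Spink8 reached at most 0.491 CPM. Listed markers of CA3 (Cpne4, 101 to 314 CPM) and of dentate granule neurons (Prox1, 42.3 to 107 CPM) were present as well. The neuronal marker Rbfox3 was at 71.3 to 137 CPM. Several libraries stood apart. The first principal component placed scrambled trained replicates 10 and 15 and Rnf20-labelled replicate 18 at one end and Rnf20-labelled replicate 14 at the other. Choroid plexus scores (mean log2 CPM of the markers) were low in scrambled trained replicates 5 and 16 and Rnf20-labelled replicate 20, at 0.0834, 1.11 and 1.70 against at least 4.46 elsewhere. Scrambled trained replicate 10 had the highest striatal score, 5.99, and the lowest CA1 score, 4.96.

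None of the 9 genes differed between groups by edgeR's quasi-likelihood test at an adjusted p under 0.05, in any of the 3 comparisons. The background share called was 0% of the 14880 genes tested in scrambled trained against naive libraries, 0% in Rnf20-labelled against scrambled trained libraries and 0% in Rnf20-labelled against naive libraries. At an unadjusted p under 0.05 the count was again 0 of 9 in each comparison, where 9.97%, 5.61% and 2.30% of all genes passed in the same order. The groups overlapped in CPM for all 9 genes in all 3 comparisons, against 1.75%, 0.659% and 0.497% of all genes whose groups did not overlap. limma-voom also called 0 genes in each comparison, and DESeq2's Wald test called 53, 1 and 1 genes, with none of the 9 among them. Since no call was made, the values below describe levels, their spread and the sizes of difference that the data leave possible.

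**Figure D1:**
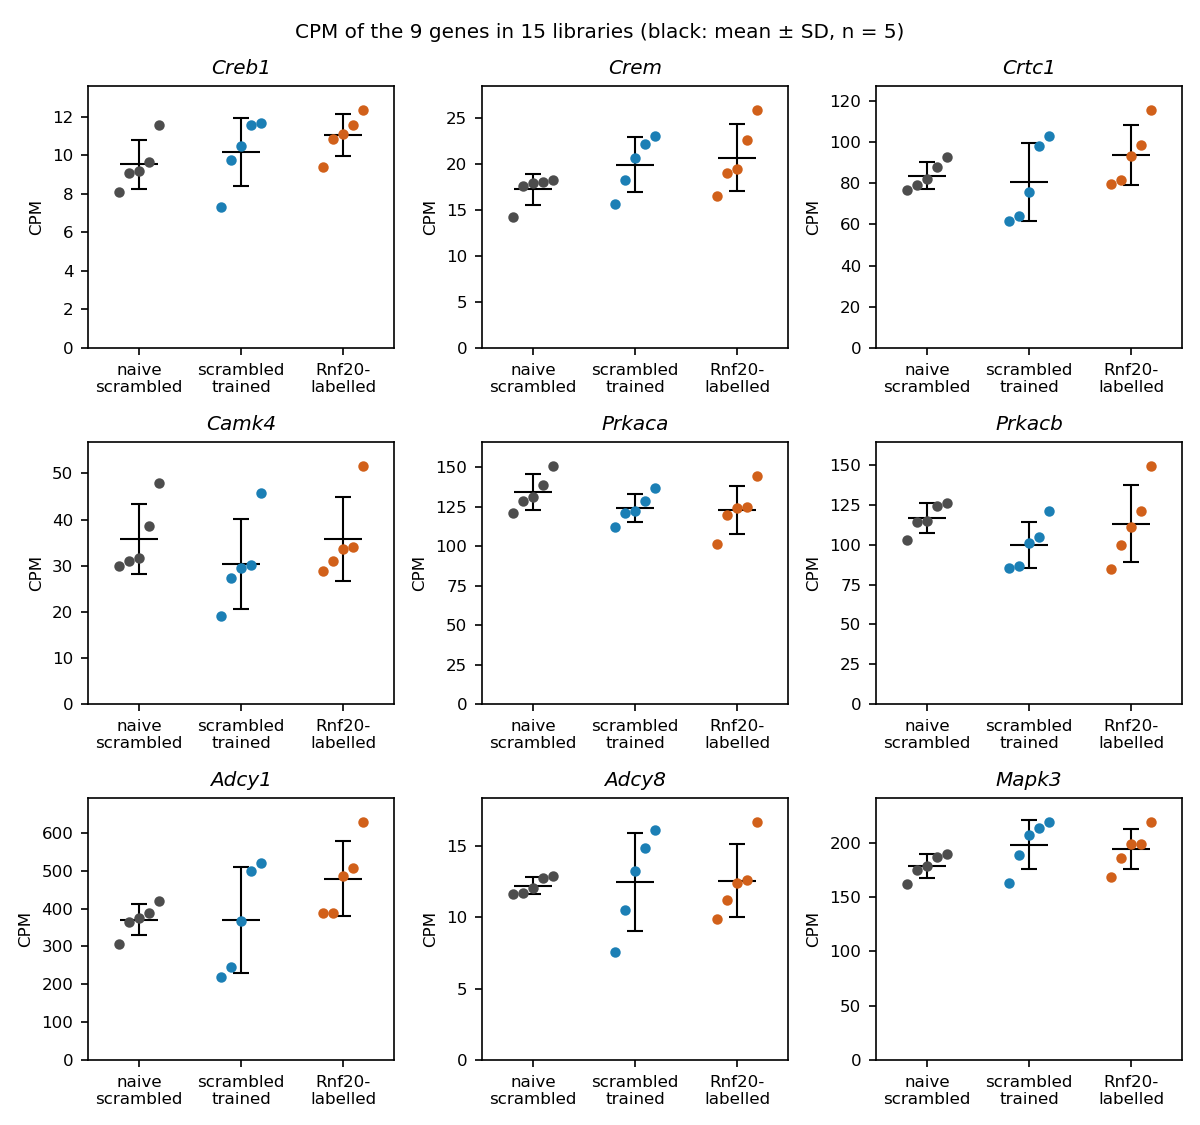
CPM (vertical axis, from 0) of each of the 9 genes in the 3 groups (horizontal axis), with 1 point per library and the mean ± SD of 5 libraries in black. In every panel the points of the 3 groups overlap. Both trained groups had a larger SD than the naive group for all of the 9 genes but Creb1 and Prkaca, and the share of all genes with this pattern was not computed.

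Adcy1 encodes the calmodulin-stimulated adenylyl cyclase that is abundant in the forebrain. It was at 376, 420.1, 388, 365 and 307 CPM in naive replicates 1, 2, 9, 11 and 12, at 519.8, 498, 218, 367 and 245 CPM in scrambled trained replicates 5, 6, 10, 15 and 16, and at 485, 506, 629, 388 and 388 CPM in Rnf20-labelled replicates 4, 8, 14, 18 and 20; all lists of 5 values below follow these orders. Scrambled trained libraries fell on both sides of the naive range, with replicates 10 and 16 under it, 5 and 6 over it and 15 inside it. In the Rnf20-labelled group replicates 4, 8 and 14 lay above every naive library, and replicates 18 and 20 lay among them. Group means were 371 ± 41.3 CPM in naive, 369.6 ± 139 CPM in scrambled trained and 479 ± 100 CPM in Rnf20-labelled libraries (SD, n = 5 each). On the log2 scale the fold change came to -0.0063 (SE 0.22, 95% interval -0.47 to 0.46; edgeR adjusted p = 0.996) for scrambled trained against naive and 0.37 (SE 0.22, 95% interval -0.093 to 0.84; edgeR adjusted p = 0.832) for Rnf20-labelled against scrambled trained libraries. The latter was the highest fold change of the 9 genes in that comparison, and it was 0.13 without the 4 libraries far out on the first component and 0.24 without scrambled trained replicate 10 (range with single libraries left out 0.24 to 0.53). Without that replicate the scrambled trained against naive value was 0.13. Against naive libraries the Rnf20-labelled group had a fold change of 0.37 (SE 0.22, 95% interval -0.10 to 0.84; edgeR adjusted p = 1.00).

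Adcy8, the other calmodulin-stimulated cyclase, was at 11.6, 12.7, 11.7, 12.0 and 12.9 CPM in naive libraries. Values were 14.8, 16.1, 7.57, 10.5 and 13.2 CPM in scrambled trained libraries and 9.86, 12.4, 16.7, 11.2 and 12.6 CPM in Rnf20-labelled libraries. Naive libraries were close together, whereas scrambled trained replicate 10 was lowest of all 15 libraries and Rnf20-labelled replicate 14 highest. Means were 12.2 ± 0.593, 12.4 ± 3.43 and 12.5 ± 2.55 CPM in the order naive, scrambled trained and Rnf20-labelled. Fold changes were 0.028 for scrambled trained against naive and 0.0090 between the trained groups, and the intervals covered -21.4% to 32.3% and -22.5% to 30.6%. Leaving out the 4 libraries far out on the first component, which leaves 3 libraries in each trained group, gave 0.28 and -0.35, neither past the adjusted threshold. Its counts were low, 129 to 246 per library.

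Prkaca and Prkacb encode the alpha and beta catalytic subunits of protein kinase A. Prkaca was at 131, 139, 129, 121 and 151 CPM in naive libraries, 137, 129, 112, 122 and 121 CPM in scrambled trained libraries and 124, 119.6, 145, 102 and 125 CPM in Rnf20-labelled libraries. Naive replicate 12 was the highest library and Rnf20-labelled replicate 18 the lowest. The means were 134 ± 11.3, 124 ± 9.11 and 123 ± 15.3 CPM in naive, scrambled trained and Rnf20-labelled libraries, a fold change of -0.11 (SE 0.091, 95% interval -0.31 to 0.081; edgeR adjusted p = 0.702) for scrambled trained against naive. The interval between the trained groups, -13.4% to 13.3%, was with that of Mapk3 the narrowest of the 9 genes.

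Prkacb was at 126, 103, 125, 115 and 115 CPM in naive libraries. It was at 121, 101, 85.7, 105 and 86.9 CPM in scrambled trained libraries, where only replicate 5 exceeded the naive median of 115 CPM, and at 111, 100, 121, 84.7 and 149.6 CPM in Rnf20-labelled libraries, which held both the lowest value (replicate 18) and the highest (replicate 20) of all 15. The mean was 117 ± 9.25 CPM in naive, 100 ± 14.6 CPM in scrambled trained and 113 ± 24.4 CPM in Rnf20-labelled libraries. Scrambled trained against naive libraries gave a fold change of -0.22 (SE 0.13, 95% interval -0.51 to 0.060; edgeR adjusted p = 0.603). Rnf20-labelled against scrambled trained libraries gave 0.18, which was 0.067 without Rnf20-labelled replicate 20 (range with single libraries left out 0.067 to 0.26). The naive and the scrambled trained means differed by more than either group's SD, and the ranges still overlapped. Both fold changes share the scrambled trained libraries, and for Rnf20-labelled against naive libraries the value was -0.043.

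Camk4 encodes calcium/calmodulin-dependent kinase IV, a nuclear kinase that phosphorylates CREB. Its values were 31.0, 30.0, 38.5, 31.6 and 48.0 CPM in naive libraries, 30.2, 45.8, 27.3, 29.5 and 19.0 CPM in scrambled trained libraries and 33.6, 30.9, 51.7, 28.9 and 34.1 CPM in Rnf20-labelled libraries. One library stood high in each group, naive replicate 12, scrambled trained replicate 6 and Rnf20-labelled replicate 14, and scrambled trained replicate 16 was lowest. Means were 35.8 ± 7.60, 30.4 ± 9.72 and 35.8 ± 9.09 CPM in naive, scrambled trained and Rnf20-labelled libraries. Its fold change came to -0.24 (SE 0.21, 95% interval -0.69 to 0.21; edgeR adjusted p = 0.731) for scrambled trained against naive and 0.24 between the trained groups. With single libraries left out the first value ranged from -0.42 without scrambled trained replicate 6 to -0.11 without naive replicate 12, and was -0.11 without scrambled trained replicate 16. The other ranged from 0.072 without Rnf20-labelled replicate 14 to 0.43 without scrambled trained replicate 6, and was 0.11 without scrambled trained replicate 16. None of these passed the adjusted threshold. Both comparisons share the scrambled trained libraries, and for Rnf20-labelled against naive libraries the fold change of Camk4 was -0.0018.

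Mapk3 encodes ERK1, one of the MAP kinases at the end of the ERK cascade. It was at 176, 189, 179, 187 and 162 CPM in naive libraries, 189, 163, 207, 219 and 214 CPM in scrambled trained libraries and 186, 199, 169, 219 and 199 CPM in Rnf20-labelled libraries. Scrambled trained replicates 10, 15 and 16 and Rnf20-labelled replicates 8, 18 and 20 exceeded every naive library, and replicate 6 of the scrambled trained group lay near the bottom of the naive range. The mean was 179 ± 10.8 CPM in naive, 199 ± 22.9 CPM in scrambled trained and 194 ± 18.7 CPM in Rnf20-labelled libraries. Its fold change came to 0.15 (SE 0.092, 95% interval -0.044 to 0.35; edgeR adjusted p = 0.609) for scrambled trained against naive libraries and -0.030 between the trained groups. The 6 libraries above the naive range had reactive glia scores (9 markers tested, such as Gfap and Vim) of 6.60, 7.30, 6.60, 5.70, 6.55 and 5.39, against 4.91 to 5.63 in naive libraries. Scores were 5.08 and 5.63 in scrambled trained replicates 5 and 6 and 4.29 and 4.09 in Rnf20-labelled replicates 4 and 14. The scrambled trained against naive fold change of Mapk3 in a fit that included the score of microglia, a separate marker list, was 0.071. No fit included the reactive glia score, and the part of reactive glia in the level of Mapk3 was not tested.

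Creb1 encodes CREB itself. Its values were 9.66, 8.08, 9.09, 11.5 and 9.19 CPM in naive libraries, 9.75, 10.5, 11.6, 11.6 and 7.33 CPM in scrambled trained libraries and 12.3, 9.38, 10.8, 11.6 and 11.1 CPM in Rnf20-labelled libraries, from 124 to 255 counts. Scrambled trained replicate 16 was lowest and Rnf20-labelled replicate 4 highest. The means, 9.51 ± 1.27, 10.1 ± 1.76 and 11.0 ± 1.09 CPM in naive, scrambled trained and Rnf20-labelled libraries, lay within the SDs of their neighbours. Its fold change came to 0.094 (SE 0.13, 95% interval -0.19 to 0.38; edgeR adjusted p = 0.845) for scrambled trained against naive, 0.12 between the trained groups and 0.22 for Rnf20-labelled against naive libraries. Without the 4 libraries far out on the first component the first 2 were -0.048 and 0.25.

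Crem encodes the CREB relative CREM, which yields both activators and repressors; a start inside the gene is known to give the short repressor ICER, itself a target of CREB. Gene counts add all its starts together, so ICER and the longer forms cannot be told apart here. Crem was at 18.1, 18.0, 17.6, 18.3 and 14.3 CPM in naive libraries, 18.3, 15.6, 22.1, 20.6 and 23.0 CPM in scrambled trained libraries and 22.6, 19.0, 16.5, 25.9 and 19.4 CPM in Rnf20-labelled libraries. Naive replicate 12 lay well under the other naive libraries, and 4 libraries of the scrambled trained group (5, 10, 15 and 16) and 4 of the Rnf20-labelled group (4, 8, 18 and 20) exceeded every naive one, replicate 5 of the scrambled trained group by less than the rounding shown. The means were 17.2 ± 1.68 CPM in naive, 19.9 ± 3.0 CPM in scrambled trained and 20.7 ± 3.63 CPM in Rnf20-labelled libraries. Its fold change came to 0.21 (SE 0.13, 95% interval -0.067 to 0.48; edgeR adjusted p = 0.619) for scrambled trained against naive and 0.27 (SE 0.13, 95% interval -0.011 to 0.54; edgeR adjusted p = 1.00) for Rnf20-labelled against naive libraries, the latter with the lowest unadjusted p of the 9 genes, 0.0586. Both comparisons share the naive libraries. The fold changes of 0.21 and 0.27 were 0.16 and 0.21 without naive replicate 12 (ranges with single libraries left out 0.15 to 0.30 and 0.18 to 0.34), and between the trained groups the value was 0.057.

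Sequence around the start sites is shown because Crem alone had a full CRE there, among the 7 of the 9 genes that could be searched. RefSeq windows of 250 bases before to 50 bases after each start (build GRCr8) were found for 7 of the 9 genes, 10 windows in all; Adcy8 and Mapk3 were not matched. The full CRE, TGACGTCA, reads the same on both strands and was in 1.83% of 33469 windows of this length, and the short site, TGACG on either strand, which the full element also contains, was in 21.2%. Of the 3 Crem windows, that of start 2 held 1 full CRE, its first base at -56 from the start, and that of start 3 held 2, at -35 and at 40. The window of Crem start 1 held 2 short sites and no full CRE. Short sites were also in the window of Creb1 start 1, 1 of 2 Creb1 windows (3), in Prkaca (2) and in Prkacb (1), and none was in the windows of Crtc1, Camk4 and Adcy1. The 250 bases before Crem starts 2 and 3 (chr17:58984547-58984796 and chr17:58985240-58985489, plus strand) and before Creb1 start 1 (chr9:73397259-73397508, plus strand) are printed 5′ to 3′ with full CREs and short sites in capitals. A match of letters is a description and shows no binding.
Crem start 2: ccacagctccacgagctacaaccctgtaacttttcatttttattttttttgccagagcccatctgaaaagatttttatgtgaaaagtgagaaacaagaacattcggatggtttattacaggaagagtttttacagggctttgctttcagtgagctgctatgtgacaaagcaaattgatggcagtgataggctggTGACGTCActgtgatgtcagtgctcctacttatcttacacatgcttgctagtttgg
Crem start 3: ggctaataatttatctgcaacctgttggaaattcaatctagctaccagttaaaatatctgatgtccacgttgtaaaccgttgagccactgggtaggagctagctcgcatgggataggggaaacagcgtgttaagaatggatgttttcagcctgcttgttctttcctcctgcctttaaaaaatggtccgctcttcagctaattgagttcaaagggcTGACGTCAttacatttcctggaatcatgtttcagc
Creb1 start 1: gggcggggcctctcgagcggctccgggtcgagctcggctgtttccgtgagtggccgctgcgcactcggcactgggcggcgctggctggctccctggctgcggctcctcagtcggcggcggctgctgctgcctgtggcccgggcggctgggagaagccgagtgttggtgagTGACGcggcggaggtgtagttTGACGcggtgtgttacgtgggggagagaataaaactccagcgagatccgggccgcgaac

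Crtc1 encodes the CREB coactivator that is most abundant in neurons. Its values were 92.7, 87.7, 82.0, 76.4 and 79.2 CPM in naive libraries, 103, 98.0, 61.7, 75.5 and 64.2 CPM in scrambled trained libraries and 98.5, 93.3, 116, 79.4 and 81.4 CPM in Rnf20-labelled libraries. Scrambled trained libraries again lay on both sides of the naive range, 10, 15 and 16 below and 5 and 6 above it, and Rnf20-labelled replicate 14 was highest. Group means were 83.6 ± 6.56, 80.5 ± 19.1 and 93.6 ± 14.6 CPM in naive, scrambled trained and Rnf20-labelled libraries. Between the trained groups its fold change came to 0.22 (SE 0.14, 95% interval -0.085 to 0.52; edgeR adjusted p = 0.838), and 0.042 without the 4 libraries far out on the first component. For scrambled trained against naive libraries it was -0.056.

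**Figure D2:**
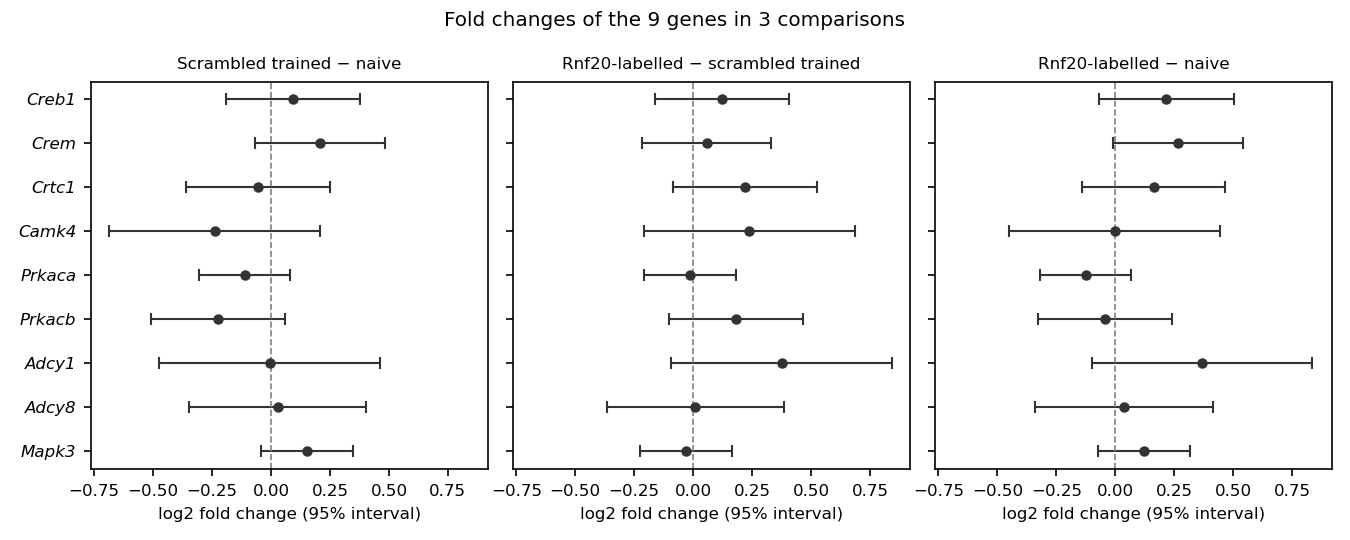
Log2 fold changes (horizontal axis) of the 9 genes (vertical axis) in the 3 comparisons (panels), as points with bars for 95% intervals derived from the edgeR fit. Every interval includes 0, and those of Adcy1 and Camk4 are the widest.

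Set side by side, 4 of the 9 genes had a fold change above 0 for scrambled trained against naive libraries (median -0.0063; -0.012 over all genes tested), 7 of 9 between the trained groups (median 0.12; 0.0023 over all genes) and 6 of 9 for Rnf20-labelled against naive libraries (median 0.12; 0.0013 over all genes). Above 0 were 47.2%, 50.7% and 50.6% of all genes tested in these comparisons. By the intervals, changes between the trained groups of more than 13.3% upward for Prkaca and 12.2% upward for Mapk3 lie outside the 95% range, whereas for Adcy1 the range reaches 79.3% and for Camk4 60.9%. In the scrambled trained against naive comparison the ranges were -2.99% to 27.3% for Mapk3, -19.1% to 5.79% for Prkaca, -4.52% to 39.8% for Crem and -37.9% to 15.5% for Camk4.

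The genes differed in how far libraries lay apart. From the lowest to the highest of all 15 libraries the ratio was 2.88 for Adcy1, 2.72 for Camk4, 2.20 for Adcy8 and 1.35 for Mapk3. The SD within groups on the log2 scale was 0.38 for Adcy1 and 0.36 for Camk4, larger than that of 75.5% and 72.9% of all genes tested. Prkaca and Mapk3 had the smallest SD, 0.14 each, larger than that of 20.7% and 20.5% of genes. The 3 libraries highest in Adcy1 overall were Rnf20-labelled replicate 14 and scrambled trained replicate 5, followed by Rnf20-labelled replicate 8, and the lowest were scrambled trained replicates 10 and 16.

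**Figure D3:**
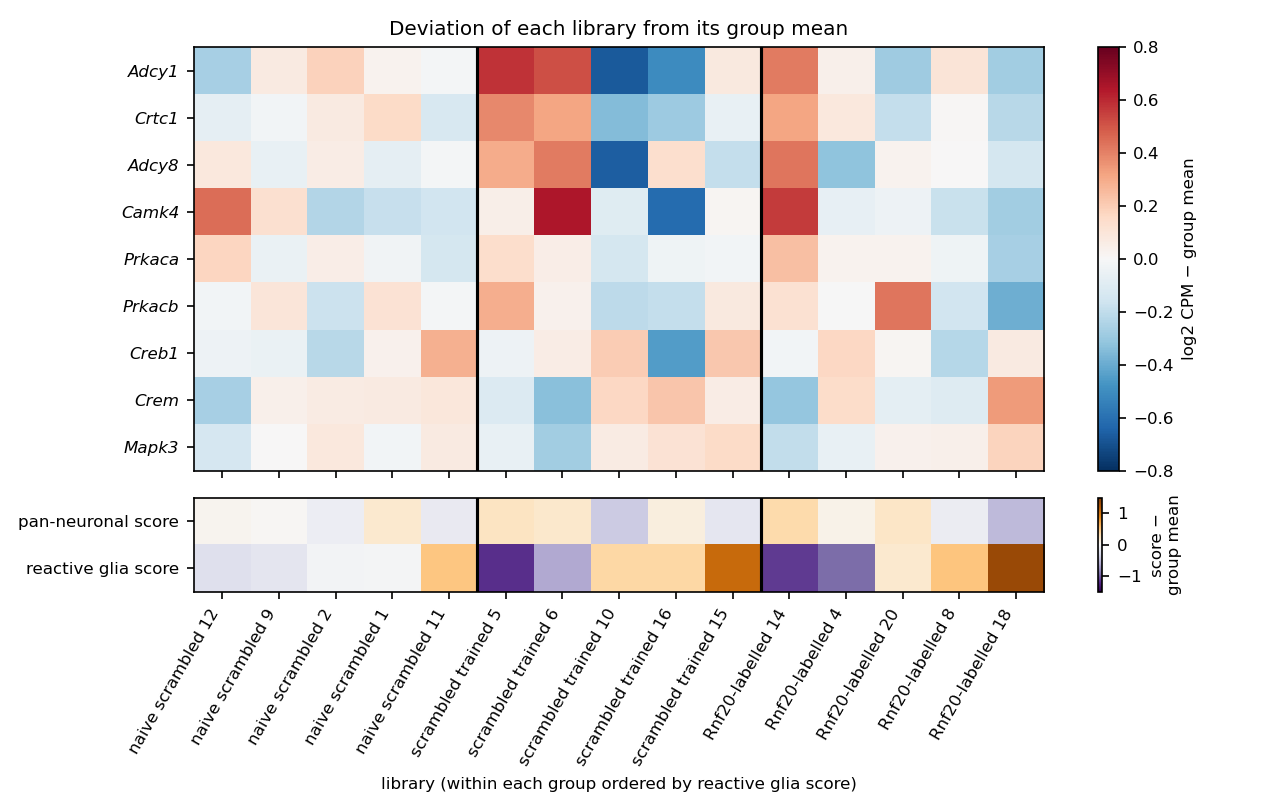
Deviation of each library (columns, in 3 groups separated by black lines) from its group mean, in log2 CPM for the 9 genes (upper rows) and in mean log2 CPM for 2 marker scores (lower rows). Crem and Mapk3 (red above, blue below the group mean) mostly run opposite to Camk4 and Prkaca, and Adcy1 and Crtc1 run together. Libraries are ordered within groups by reactive glia score.

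Within groups, several of the 9 genes varied together or in opposite directions. Correlations were taken over the 15 libraries after each group's mean was subtracted from log2 CPM, for 36 pairs of genes and for 126 pairs of a gene and a marker score, with permutation of libraries within groups and adjustment over all 162. Adcy1 and Crtc1 were most alike (Pearson r = 0.94, permutation p = 0.000200, adjusted p = 0.0108; Spearman rho = 0.90, permutation p = 0.00109, adjusted p = 0.0437). Libraries above their group's mean in the cyclase gene thus tended to lie above it in the coactivator gene, and r was 0.92 without the 2 libraries farthest out in Adcy1 and 0.93 without the 4 far out on the first component. Crem and Mapk3 varied together (Pearson r = 0.85, permutation p = 0.000780, adjusted p = 0.0183; Spearman rho = 0.75, permutation p = 0.00763, adjusted p = 0.0727), with r of 0.71 without the 2 libraries farthest out in Mapk3. Camk4 ran opposite to Crem (Pearson r = -0.85, permutation p = 0.000140, adjusted p = 0.0108; Spearman rho = -0.81, permutation p = 0.000680, adjusted p = 0.0437). It also ran opposite to Mapk3 (Pearson r = -0.85, permutation p = 0.000650, adjusted p = 0.0183; Spearman rho = -0.76, permutation p = 0.00307, adjusted p = 0.0483). Without their 2 farthest libraries these 2 values were -0.72 and -0.67. Prkaca also ran opposite to Crem (Pearson r = -0.80, permutation p = 0.00202, adjusted p = 0.0273; Spearman rho = -0.78, permutation p = 0.00189, adjusted p = 0.0437; r = -0.65 without the 2 farthest). These 5 of the 36 pairs passed at an adjusted p under 0.05 for r. No relation of Creb1 passed; among the 9 genes its r was farthest from 0 with Adcy8 (Pearson r = -0.43, permutation p = 0.237, adjusted p = 0.369; Spearman rho = -0.55, permutation p = 0.0506, adjusted p = 0.160; r = -0.36 without the 2 farthest).

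**Figure D4:**
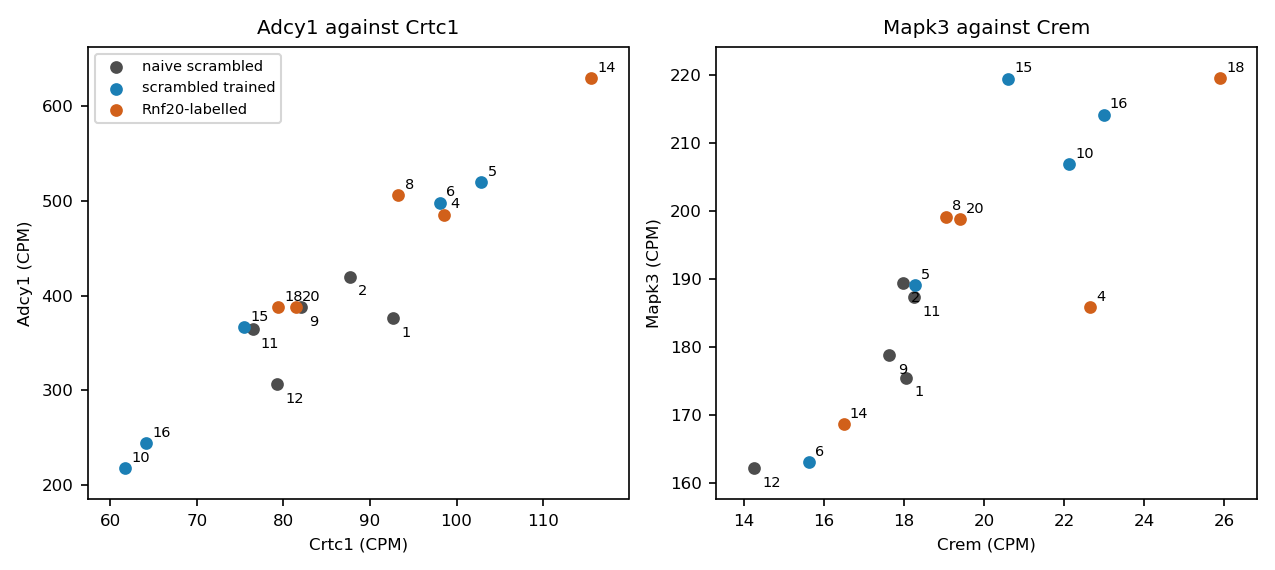
CPM of Adcy1 against Crtc1 (left) and of Mapk3 against Crem (right), 1 point per library, coloured by group and numbered by replicate. Axes do not start at 0. Points of all 3 groups lie along 1 band in each panel, with scrambled trained replicates 10 and 16 lowest and Rnf20-labelled replicate 14 highest on the left.

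The gene most like each of 8 of the 9 across the 15 libraries was found by the highest Pearson r over group-centred log2 CPM among 14879 other genes, a search that carries no p. It was Crtc1 for Adcy1 (r = 0.94), while Adcy1 ranked in place 3 for Crtc1 after Syt7, a synaptotagmin (r = 0.96), and 1 other gene. The nearest genes were Htt, which encodes huntingtin, for Camk4 (r = 0.96), Nav3 for Prkacb (r = 0.94) and AABR07024542.1 for Prkaca (r = 0.97). For Crem it was Mettl25 (r = 0.95), for Mapk3 Sap25 (r = 0.94) and for Creb1 Fut11 (r = 0.85), the weakest of these 8.

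The same deviations ran along with markers of other cells in the dissected tissue. In bulk tissue fewer cells of a type and less RNA per cell cannot be told apart. Mapk3 was higher in libraries with more reactive glia transcripts (Pearson r = 0.81, permutation p = 0.00178, adjusted p = 0.0262; Spearman rho = 0.86, permutation p = 0.000390, adjusted p = 0.0437), and r was 0.82 without the 2 farthest libraries and 0.59 without the 4 libraries far out on the first component. Prkaca ran the other way with that score (Pearson r = -0.78, permutation p = 0.00125, adjusted p = 0.0247; Spearman rho = -0.75, permutation p = 0.00272, adjusted p = 0.0483), with r of -0.66 without the 2 farthest libraries. It followed the CA1 score (Pearson r = 0.71, permutation p = 0.000790, adjusted p = 0.0183; Spearman rho = 0.75, permutation p = 0.00328, adjusted p = 0.0483) and, by r, the pan-neuronal score (Pearson r = 0.80, permutation p = 0.00176, adjusted p = 0.0262; Spearman rho = 0.73, permutation p = 0.00486, adjusted p = 0.0606). The pan-neuronal value was 0.39 without the 4 libraries far out on the first component. Adcy8 followed the CA1 score (Pearson r = 0.83, permutation p = 0.00334, adjusted p = 0.0386; Spearman rho = 0.81, permutation p = 0.00140, adjusted p = 0.0437). It ran opposite to the striatal score (Pearson r = -0.81, permutation p = 0.00219, adjusted p = 0.0273; Spearman rho = -0.69, permutation p = 0.00870, adjusted p = 0.0742) and to the oligodendrocyte score (Pearson r = -0.89, permutation p = 6.00e-05, adjusted p = 0.00972; Spearman rho = -0.83, permutation p = 0.000890, adjusted p = 0.0437). Crem ran along with the oligodendrocyte score (Pearson r = 0.82, permutation p = 0.000680, adjusted p = 0.0183; Spearman rho = 0.81, permutation p = 0.00185, adjusted p = 0.0437) and Prkaca against it (Pearson r = -0.75, permutation p = 0.00137, adjusted p = 0.0247; Spearman rho = -0.77, permutation p = 0.00303, adjusted p = 0.0483). Without the 2 farthest libraries the 5 values of Prkaca with the CA1 and pan-neuronal scores and of Adcy8 with the CA1, striatal and oligodendrocyte scores were 0.58, 0.62, 0.68, -0.67 and -0.78, and the oligodendrocyte values of Crem and Prkaca were 0.81 and -0.80.

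The mean marker scores were not the same in the 3 groups, which was not tested, and the ranges overlapped. The mean reactive glia score was 5.15 ± 0.285 in naive, 6.24 ± 0.879 in scrambled trained and 5.20 ± 1.02 in Rnf20-labelled libraries (SD, n = 5), and that of blood cells (4 markers) 2.53 ± 0.184, 4.38 ± 1.23 and 3.51 ± 0.863. Blood cell scores were 2.35 to 2.81 in naive, 2.78 to 5.95 in scrambled trained and 2.59 to 4.48 in Rnf20-labelled libraries, and the marker Slc4a1 was at 0 in 1 library. Reactive glia scores were 4.91 to 5.63 in naive, 5.08 to 7.30 in scrambled trained and 4.09 to 6.55 in Rnf20-labelled libraries. Pan-neuronal scores (12 markers) were 7.89 to 8.21, 7.40 to 8.03 and 7.45 to 8.28, and oligodendrocyte scores (8 markers) 9.14 to 9.76, 8.69 to 9.74 and 8.96 to 9.62, in the same order. Striatal scores (7 markers) were 3.03 to 4.88, 2.66 to 5.99 and 2.88 to 4.51. No marker of the reactive glia, pan-neuronal, oligodendrocyte and striatal lists was at 0 in any library. Eno2 of the pan-neuronal list was low throughout, at 0.234 to 0.860 CPM. Spink8 of the CA1 list was at 0 in 1 library and did not pass the filter. The part of these cells in the levels of the 9 genes was not tested beyond the fits with a score. With the pan-neuronal score as a covariate the fold changes of scrambled trained against naive libraries were 0.15 for Adcy1, 0.086 for Crtc1, -0.061 for Prkacb and 0.060 for Mapk3, with none of the 9 genes called.

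The whole route, the 9 genes included, was described by 9 lists with their counts and medians; Crem and Sik1 stand on 2 lists each. No gene of any list passed the adjusted threshold in any comparison. Upstream, 6 of 12 receptors and ligands that feed cAMP had a fold change above 0 for scrambled trained against naive libraries (median -0.026), 7 between the trained groups (median 0.050) and 5 for Rnf20-labelled against naive libraries (median -0.043). Of 10 adenylyl cyclases 5 were above 0 for scrambled trained against naive (median 0.00084), 8 between the trained groups (median 0.071) and 7 for Rnf20-labelled against naive libraries (median 0.050). Adcy6, a calcium-inhibited cyclase, was at 54.6 ± 8.05 against 47.2 ± 5.39 CPM (log2 fold change 0.21, SE 0.10; edgeR adjusted p = 0.832) between the trained groups. Of 14 genes for protein kinase A subunits, inhibitors, anchors and the Epac exchange factors, 3 were above 0 for scrambled trained against naive (median -0.043), 12 between the trained groups (median 0.10) and 8 for Rnf20-labelled against naive libraries (median 0.030). Rapgef4, which encodes the cAMP sensor Epac2, was at 409.6 ± 93.8 against 529.7 ± 80.5 CPM (log2 fold change -0.37, SE 0.16; edgeR adjusted p = 0.452) in scrambled trained against naive libraries, and its fold change between the trained groups was 0.36. Both comparisons share the scrambled trained libraries, and for Rnf20-labelled against naive libraries the value was -0.0076.

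Phosphodiesterases, which break cAMP down, had the lowest median of the 9 lists for scrambled trained against naive libraries. Of 16 genes 3 were above 0 (median -0.17), 13 between the trained groups (median 0.13) and 5 for Rnf20-labelled against naive libraries (median -0.035). These comparisons share groups, and the pan-neuronal score was 8.03 ± 0.127 in naive, 7.78 ± 0.270 in scrambled trained and 7.95 ± 0.325 in Rnf20-labelled libraries (mean ± SD); its part in the medians of these lists was not tested. Pde4b, a phosphodiesterase studied in memory, was at 39.2 ± 3.39 against 49.1 ± 6.19 CPM (log2 fold change -0.33, SE 0.10; edgeR adjusted p = 0.379) for scrambled trained against naive, with an unadjusted p of 0.00429. Of 15 genes for calmodulin, its kinases and calcineurin, 4 were above 0 for scrambled trained against naive (median -0.10), 11 between the trained groups (median 0.10) and 5 for Rnf20-labelled against naive libraries (median -0.033). Camk1g, a calmodulin kinase I isoform, was at 13.0 ± 1.82 against 18.3 ± 2.90 CPM (log2 fold change -0.50, SE 0.17; edgeR adjusted p = 0.394) for scrambled trained against naive, and its fold change between the trained groups was 0.38. Both values share the scrambled trained libraries, and for Rnf20-labelled against naive libraries it was -0.12.

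In the list of the CREB family, its coactivators and their kinases, 10 of 14 genes were above 0 for scrambled trained against naive (median 0.055), 10 between the trained groups (median 0.10) and 11 for Rnf20-labelled against naive libraries (median 0.16). Salt-inducible kinases phosphorylate CRTC proteins and keep them out of the nucleus. Sik3 was at 146 ± 11.2 against 168 ± 6.90 CPM (log2 fold change -0.20, SE 0.073; edgeR adjusted p = 0.411), with every scrambled trained library below every naive one. Crtc3, a coactivator gene related to Crtc1, was at 7.17 ± 0.972 against 5.87 ± 1.03 CPM (log2 fold change 0.29, SE 0.15; edgeR adjusted p = 0.832) between the trained groups. Sik1, itself a CREB target, was at 8.42 ± 1.56 against 6.35 ± 1.51 CPM (log2 fold change 0.40, SE 0.18; edgeR adjusted p = 0.468) in scrambled trained against naive libraries. In the ERK cascade 11 of 21 genes were above 0 for scrambled trained against naive (median 0.029), 14 between the trained groups (median 0.038) and 17 for Rnf20-labelled against naive libraries (median 0.058). The small GTPase gene Rap1b was at 64.1 ± 13.2 against 50.2 ± 4.89 CPM (log2 fold change 0.35, SE 0.14; edgeR adjusted p = 0.429) in scrambled trained against naive libraries. In Rnf20-labelled libraries Rap1b was at 52.5 ± 9.79 CPM. Among 13 other kinases studied in memory 0 were above 0 for scrambled trained against naive (median -0.11), 11 between the trained groups (median 0.12) and 5 for Rnf20-labelled against naive libraries (median -0.0045). Prkcz, which encodes protein kinase C zeta, was at 208 ± 19.3 against 233 ± 19.9 CPM (log2 fold change -0.16, SE 0.094; edgeR adjusted p = 0.597) for scrambled trained against naive.

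Downstream, 16 of 20 CREB target genes were above 0 for scrambled trained against naive (median 0.14), 8 between the trained groups (median -0.050) and 14 for Rnf20-labelled against naive libraries (median 0.25). For scrambled trained against naive libraries an edgeR unadjusted p under 0.05 was reached by 5 of the 20, all upward. Among all genes tested, 9.97% reached it in either direction, 985 genes upward and 499 downward. Junb, an AP-1 subunit, and Per1, a clock gene with a CRE, had the smallest p of the list and fold changes of 0.72 (SE 0.13) and 0.68 (SE 0.14), both with an edgeR adjusted p of 0.379. The others were Sik1 and, named because of this count, Fos and Nr4a1, with fold changes of 0.91 (SE 0.32) and 0.54 (SE 0.24). In Junb every library of both trained groups lay above every naive one. Between the trained groups the value for Junb was -0.21. An edgeR unadjusted p under 0.05 was reached by 0 of the 20 between the trained groups, against 5.61% of all genes. For Rnf20-labelled against naive libraries it was reached by 3, all upward, against 2.30% of all genes. Each other list held 0 to 2 such genes for scrambled trained against naive libraries. This list too was chosen with earlier results of these data known, and its counts were not tested.

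**Figure D5:**
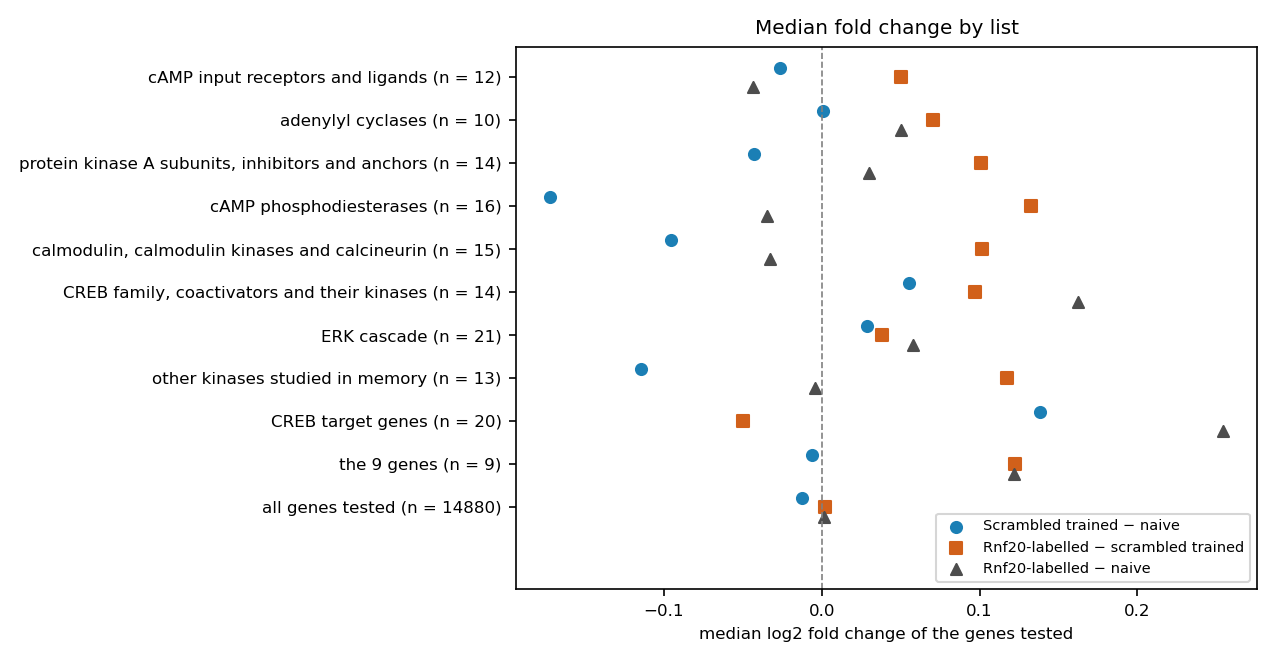
Median log2 fold change (horizontal axis) of the tested genes of each list (vertical axis, with the number tested) in the 3 comparisons (symbols). The medians of the 9 genes and of all genes tested are at the bottom; no list holds a gene past the adjusted threshold.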

How the data were processed

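RNA of 15 libraries was measured by sequencing, from a stranded poly(A) kit with 14 PCR cycles, per the labels' protocols. By the submitters' processing notes, Trim Galore and FastQC were applied to the reads, and the authors used featureCounts 2.0.1, Rnor_6.0 and DESeq2. Aligner, annotation release and strand setting were not given in the sources used here. A count per gene and library is what the deposited raw table holds. The deposited normalised signal table equalled those counts over DESeq2 size factors, with 0 genes off by more than a relative 1e-06, and was not used further.

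Tools were sva 3.50.0, DESeq2 1.42.0, edgeR 4.0.16 and limma 3.58.1, run in R 4.3.3. Of 22314 genes, 14880 passed filterByExpr. TMM scaling and edgeR's quasi-likelihood F test (robust, group means, all 15 libraries, 12 residual degrees of freedom) were used, with Benjamini-Hochberg adjustment over all genes tested. CPM are given as mean ± SD (n = 5), and scores are means of log2 CPM (prior count 2). Correlations used 100000 permutations within groups. Replicates differed beyond sampling noise (chi-square per degree of freedom of at least 9.52), no batch or pairing is in the labels, and counts limit precision most for Creb1 and Adcy8. The edgeR script was tested on simulated data.

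The 9 genes and all lists were chosen with earlier results of these data known. Named beside them are, per list, genes of smallest p in the first or second comparison, and the genes most like the 9; a result that this rule names but that is withheld is not reported here. Vipr1, Htr7, Calm3 and Rasgrf2 of the lists were not matched in the table. Alternatives were DESeq2, limma-voom, other scaling and filters, 2 groups alone, covariates and libraries left out. No gene lengths were used, so levels of different genes were not compared.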

Additional observations from a re-analysis of the deposited data

Results flagged for a closer look

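Of 27 sets of 5 libraries (9 genes in 3 groups), 2 held a library far from the others by Dixon's test, and chance flags about 1 in 20 such sets. Crem in naive replicate 12 was at 14.3 CPM, where the nearest naive library was at 17.6 CPM. Camk4 in Rnf20-labelled replicate 14 was at 51.7 CPM, where the nearest library of that group was at 34.1 CPM. Each of these libraries was also the highest or lowest of its group for other genes of the route: naive replicate 12 was highest of all 15 in Prkaca and lowest in Mapk3, and Rnf20-labelled replicate 14 was highest of all 15 in Adcy1, Adcy8 and Crtc1.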

How the results depend on the processing

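None of the 9 genes was called in any of 3 comparisons under the 21 alternative settings run for each comparison, 26 different settings in all, of which 15 left out 1 library. The spread between libraries limits precision for most of the 9 genes, and counts add to it for Creb1 and Adcy8. The number of all genes called, 0 by edgeR in each comparison, was 53, 1 and 1 by DESeq2's Wald test and 2 in the first comparison with 1 surrogate variable. Leaving out single libraries gave 0 to 1 called genes in the last comparison, 1 of them without naive replicate 9, and 0 in the others. The cause was not tested. Of 27 log2 fold changes (9 genes in 3 comparisons: scrambled trained against naive first, Rnf20-labelled against scrambled trained second, Rnf20-labelled against naive last), 15 kept their sign in every setting run. The uncalled values that changed sign follow. By limma-voom they were Adcy8 -0.034 in the first comparison, Adcy8 -0.0056 in the last comparison. With 1 surrogate variable they were Crtc1 0.095 and Adcy1 0.16 in the first comparison, Adcy8 -0.12 and Mapk3 0.054 in the second comparison, Camk4 0.0068 in the last comparison. With the microglia score as a covariate they were Crtc1 0.067 and Adcy1 0.13 in the first comparison, Adcy8 -0.091 and Mapk3 0.054 in the second comparison. With the pan-neuronal score as a covariate they were Crtc1 0.086 and Adcy1 0.15 in the first comparison, Adcy8 -0.10 and Mapk3 0.030 in the second comparison, Camk4 0.034 in the last comparison. Without the 4 libraries far out on component 1 they were Creb1 -0.048, Crtc1 0.084 and Adcy1 0.18 in the first comparison, Adcy8 -0.35 and Mapk3 0.035 in the second comparison, Prkacb 0.043 and Adcy8 -0.070 in the last comparison. Without the 3 libraries low in choroid plexus transcripts they were Adcy8 -0.10 in the first comparison, Creb1 -0.024 and Prkaca 0.018 in the second comparison, Camk4 0.014 in the last comparison. With only the 2 groups fitted it was Camk4 0.0083 in the last comparison. With single libraries left out, the ranges that crossed 0 were Adcy1 -0.16 to 0.13 (first), Adcy8 -0.069 to 0.17 (first), Crtc1 -0.16 to 0.028 (first), Prkaca -0.078 to 0.044 (second), Crem -0.045 to 0.13 (second), Adcy8 -0.12 to 0.12 (second), Mapk3 -0.10 to 0.017 (second), Camk4 -0.17 to 0.13 (last), Adcy8 -0.084 to 0.11 (last) and Prkacb -0.15 to 0.049 (last). The 14 correlations past the adjusted threshold kept their sign in each of 3 sets of libraries left out, which were chosen after seeing the data. A kept sign says little about size. Without the 4 libraries far out on component 1, r of Prkaca with the pan-neuronal score went from 0.80 to 0.39. That of Crem with the oligodendrocyte score went from 0.82 to 0.93. The labels give the groups no shared replicate numbers, so no paired fit was made.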

Other observations

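Count ratios of paired genes, which also carry their transcript lengths and are compared only between libraries, showed which members moved apart. The ratio of Prkaca to Prkacb counts was 1.04 to 1.35 in naive, 1.13 to 1.39 in scrambled trained and 0.835 to 1.20 in Rnf20-labelled libraries. The value of 0.835, the only one below 1, was Rnf20-labelled replicate 20, in which Prkacb was highest of all 15 libraries; that library was also low in choroid plexus transcripts. The ratio of Adcy1 to Adcy8 counts was 23.8 to 33.1 in naive, 18.5 to 35.0 in scrambled trained and 30.7 to 49.2 in Rnf20-labelled libraries, lowest in scrambled trained replicate 16 and highest in Rnf20-labelled replicate 4. The ratio of Crem to Creb1 counts was 3.14 in scrambled trained replicate 16 and 1.49 to 2.24 in the other 14 libraries. The ratio of Adcy1 to Crtc1 counts stayed within 3.54 to 5.44 over all 15. These ratios were not tested.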
